A study of Mus musculus with 12 samples.

Results

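The creatine cycle genes are Gatm, Gamt, Slc6a8, Ckb, Ckmt1, Ckmt2 and Alpl, chosen by their gene symbols and not by their values, and they make up 7 of the 54134 genes in the table of read counts. They were measured by RNA-seq in inguinal white adipose tissue (iWAT), the subcutaneous fat depot of the groin, of 12 male C57BL/6J mice, each sequenced as a library of its own. All mice received an adeno-associated virus (AAV) at 8 weeks of age, so the controls carry a virus too. In 6 AAV-GFP mice the virus expressed green fluorescent protein, and in 6 AAV-Notum mice it expressed the mouse secreted Wnt deacylase NOTUM. A liver-specific thyroxine binding globulin promoter drove both vectors, so reads from fat do not check the labels. Over the next 4 weeks the mice were fed low fat chow, and they were fasted for 4 h before collection at 12 weeks. The groups were compared to see how NOTUM made in the liver changes gene expression in fat, and here the genes of a heat-producing route without UCP1 were taken from that comparison.

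Creatine and phosphocreatine carry high-energy phosphate between mitochondria and the places where ATP is used, above all in muscle and brain. In thermogenic fat, phosphocreatine can be made by creatine kinases and broken down again without doing work, a futile cycle that uses ATP and releases heat without uncoupling protein 1. The cycle needs creatine, which a cell makes from arginine, glycine and methionine or takes up from blood, and it needs a kinase and a phosphatase near the mitochondria.

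Total reads ran from 14711113 to 21618860 per mouse, with 15266635 to 21618860 in AAV-GFP mice and 14711113 to 17838229 in AAV-Notum mice (two-sided exact permutation test, p = 0.279). RNA integrity numbers were 5.7 to 7.6 in AAV-GFP mice and 6.9 to 7.4 in AAV-Notum mice, and AAV-GFP mouse S_2011 had the lowest. RNA was isolated 2 days after collection, except in AAV-GFP mouse S_2012, where it was 22 days. All 12 adipocyte markers, Adipoq and Plin1 among them, had at least 10 reads in every mouse. Lymphoid, skeletal muscle and hepatocyte transcripts varied more than adipocyte markers from mouse to mouse. The mean log2 CPM of 15 lymphoid markers was -0.07 in AAV-GFP mouse S_2011 and -0.58 in AAV-GFP mouse S_2014 but 4.07 to 7.34 in the other 10 mice, and that of 28 skeletal muscle markers ran from -0.33 to 5.79. CPM are reads scaled to the TMM-normalized library size, with a prior count of 2 added for log2 values. In whole tissue, fewer cells of a type and less RNA per cell cannot be told apart.

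None of the creatine cycle genes passed the test across all genes. Of the 7 genes, 5 (Gatm, Gamt, Slc6a8, Ckb and Alpl) had enough reads for it, and 0 of these 5 had an adjusted p under 0.05 by edgeR's quasi-likelihood test, where 8 of 15585 genes did (0.0513%). At an unadjusted p under 0.05, 1 of the 5 was called, Slc6a8, which was lower in AAV-Notum mice, and the share of all genes called at that level was 14.2% in either direction and 9.54% in the lower and 4.64% in the higher direction. DESeq2 gave 0 of the 5 with an adjusted p under 0.05, where it called 2.66% of 16401 genes, 2.18% in the lower direction. All 5 fold changes were below 0 with a median of -0.35, where the median over all genes tested was 0.0077. No member separated the groups: in each, the AAV-Notum and AAV-GFP mice overlapped, as they did in all but 0.693% of genes in the lower direction and 0.398% in the higher direction.

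**Figure D1:**
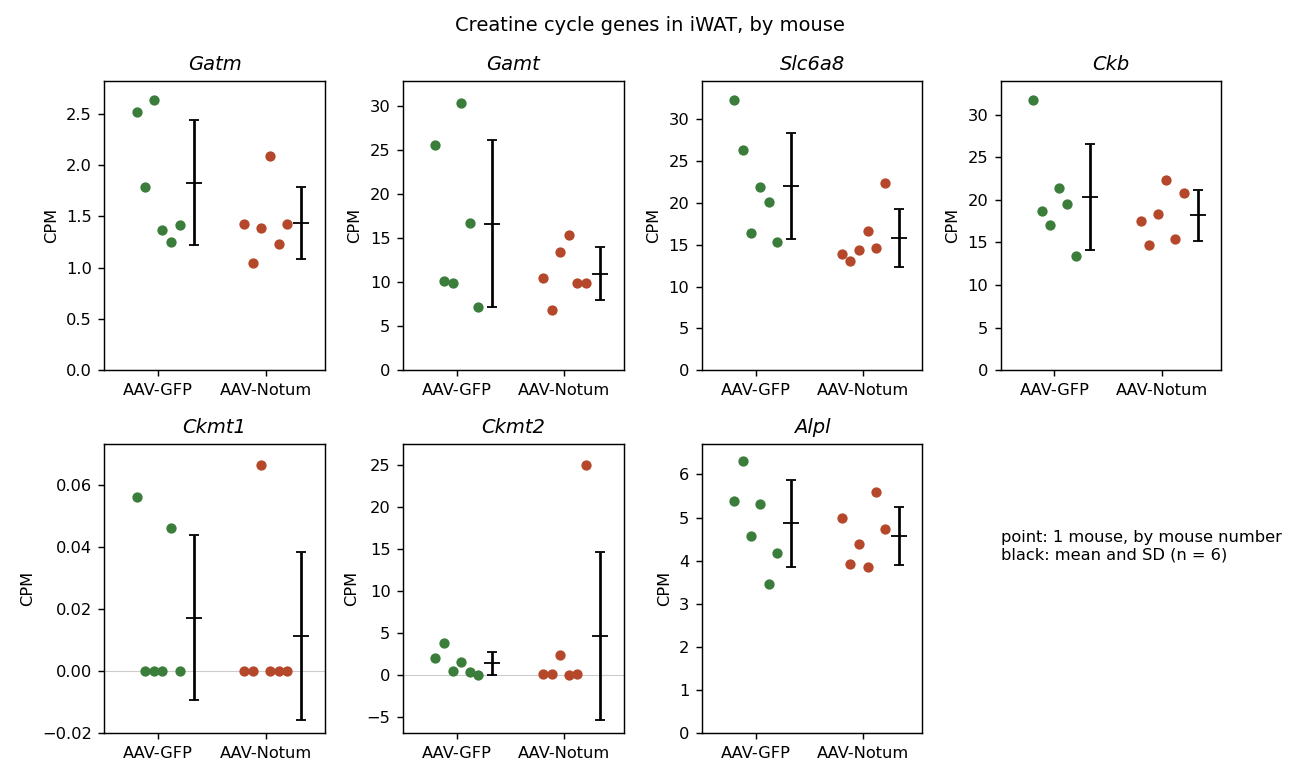
The level of each of the 7 genes in CPM (y axis) is plotted for 6 AAV-GFP and 6 AAV-Notum mice, with 1 point per mouse and the mean and SD in black. The groups overlap in every panel, Slc6a8 has 4 AAV-Notum mice below all AAV-GFP mice, and AAV-Notum mouse S_2042 stands at 24.9 CPM for Ckmt2.

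Levels per kilobase of exon put Gamt and Ckb at the top. The length used was that of all annotated exons together, 1444 bases for Gamt and 2895 for Ckb, and not that of 1 transcript. The order of these 2 genes rests on it. In CPM, Ckb had the higher medians, 19.1 against 13.4 in AAV-GFP mice and 17.9 against 10.2 in AAV-Notum mice. The median over the 12 mice was 7.11 CPM per kb for Gamt, 6.40 for Ckb, 3.16 for Slc6a8, 1.15 for Alpl, 0.473 for Gatm and 0.231 for Ckmt2, and it was 0 for Ckmt1. Ckb was above Slc6a8, Slc6a8 above Alpl and Alpl above Gatm in 12 of 12 mice each. Gamt was above Ckb in 10 of 12 mice. Gatm was above Ckmt2 in 7 of 12, so the order of that last pair changed from mouse to mouse. The step that makes the precursor was thus the lowest of the 5 tested genes. The methyltransferase that follows it was the highest in median on this scale, but not in CPM.

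Gatm encodes glycine amidinotransferase, the mitochondrial enzyme that joins arginine and glycine to guanidinoacetate in the first step of creatine synthesis. The gene (ENSMUSG00000027199) lies on chromosome 2 of GRCm38 from 122594467 to 122611303 on the minus strand. It had few reads, 20 to 45 per mouse. In AAV-GFP mice its level ran from 1.25 CPM through a median of 1.60 to 2.63, and in AAV-Notum mice from 1.05 through 1.41 to 2.09. AAV-GFP mice S_2013 and S_2011 were the highest, 5 of 6 AAV-Notum mice lay below the AAV-GFP mean and 2 lay below every AAV-GFP mouse. The means were 1.83 ± 0.608 CPM (SD, n = 6) with AAV-GFP and 1.44 ± 0.354 CPM (SD, n = 6) with AAV-Notum. The log2 fold change of -0.35 (SE 0.24, 95% interval -0.87 to 0.18, adjusted p = 0.478 from edgeR) was within the spread between mice (exact permutation p = 0.203). Without the 5 mice with over 1000 reads on the muscle gene Myh4, it was 0.11.

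Gamt encodes guanidinoacetate N-methyltransferase, which turns guanidinoacetate into creatine with a methyl group from S-adenosylmethionine. The gene (ENSMUSG00000020150) lies on chromosome 10 from 80258151 to 80261012 on the minus strand, and it had 116 to 510 reads per mouse. AAV-GFP mice ran from 7.14 CPM through a median of 13.4 to 30.4, and AAV-Notum mice from 6.81 through 10.2 to 15.4. Gamt varied more among the controls than any other member that was tested, with a coefficient of variation of 56.7% in AAV-GFP mice and 27.4% in AAV-Notum mice. AAV-GFP mice S_2014 and S_2011 stood at 30.4 and 25.6 CPM, above every other mouse, and these are also the mice with few lymphoid transcripts. Its means were 16.7 ± 9.45 CPM (SD, n = 6) and 11.0 ± 3.01 CPM (SD, n = 6) in AAV-GFP and AAV-Notum mice. All 6 AAV-Notum mice lay below the AAV-GFP mean, and 1 lay below every AAV-GFP mouse. The log2 fold change of -0.60 (SE 0.35, 95% interval -1.35 to 0.15, adjusted p = 0.422 from edgeR) was not larger than the spread between mice (exact permutation p = 0.245). When the lymphoid score entered as a covariate, the fold change of Gamt turned to 0.058, and without those 2 mice it was -0.0087.

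Slc6a8 encodes the sodium- and chloride-dependent creatine transporter of the plasma membrane, through which cells take up creatine from blood. The gene (ENSMUSG00000019558) lies on chromosome X from 73673150 to 73682502 on the plus strand and had 216 to 575 reads per mouse. In AAV-GFP mice the level ran from 15.3 CPM through a median of 21.0 to 32.2, and in AAV-Notum mice from 13.0 through 14.5 to 22.3. AAV-GFP mice S_2011 and S_2012 were the highest of all at 32.2 and 26.3 CPM. AAV-Notum mouse S_2042, with 22.3 CPM, came next, and the other 5 AAV-Notum mice lay between 13.0 and 16.6 CPM, 4 of them below every AAV-GFP mouse. The means were 22.01 ± 6.38 CPM (SD, n = 6) with AAV-GFP and 15.8 ± 3.42 CPM (SD, n = 6) with AAV-Notum. The log2 fold change was -0.48 (SE 0.19, 95% interval -0.90 to -0.06). Slc6a8 was lower in AAV-Notum mice at an unadjusted p of 0.0285 and by the exact permutation test (p = 0.0476), but not after adjustment over 15585 genes (adjusted p = 0.305 from edgeR).

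The difference in Slc6a8 moved with the mice that were used. Without AAV-GFP mouse S_2011, which had the highest Slc6a8, the lowest RNA integrity number and few lymphoid transcripts, the log2 fold change was -0.34 (unadjusted p = 0.0760, adjusted p = 0.547 from edgeR). The unadjusted p was also over 0.05 without AAV-GFP mouse S_2012 and without any of AAV-Notum mice S_2031, S_2032, S_2033 and S_2041, with fold changes of -0.46 to -0.42. It was -0.31 when RNA integrity entered the fit as a covariate (unadjusted p = 0.0741, adjusted p = 0.604 from edgeR) and -0.18 when the lymphoid score did (unadjusted p = 0.286, adjusted p = 0.825). Without AAV-GFP mice S_2011 and S_2014, a choice made with the data in view, it was -0.31 (unadjusted p = 0.122, adjusted p = 0.786 from edgeR). The part of lymphoid tissue and RNA quality in the Slc6a8 value was not tested beyond these fits. With the hepatocyte marker score as a covariate it was -0.64 (unadjusted p = 0.00308, adjusted p = 0.133 from edgeR), and with the skeletal muscle marker score -0.45 (unadjusted p = 0.00814, adjusted p = 0.137 from edgeR).

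**Figure D2:**
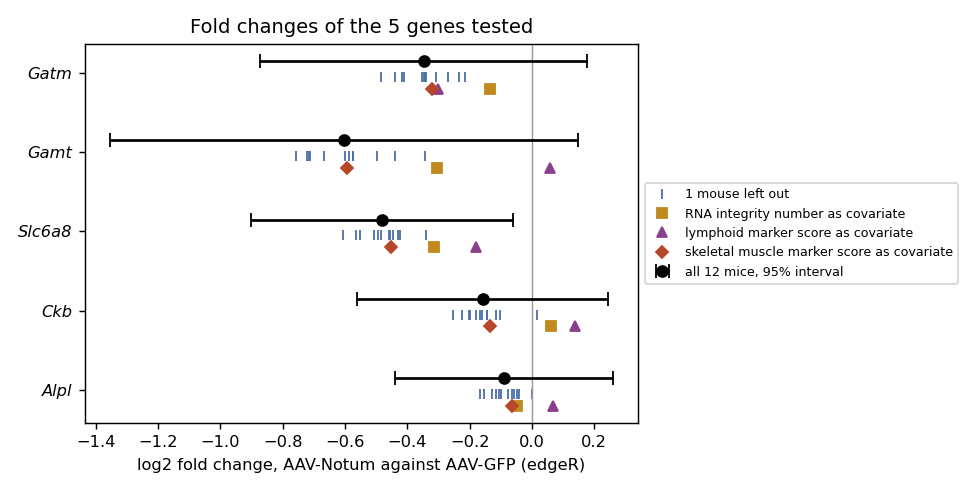
Log2 fold changes of AAV-Notum against AAV-GFP mice (x axis) are shown for the 5 genes tested, with the 95% interval over all 12 mice in black, each mouse left out in turn as ticks, and 3 covariates as coloured symbols. Slc6a8 stays below 0 at every point shown, while Ckb, Gamt and Alpl lie above 0 with the lymphoid score as a covariate.

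Creatine kinases move phosphate between ATP and creatine. Ckb, the cytosolic brain-type kinase, is also a creatine kinase of thermogenic adipocytes. The gene (ENSMUSG00000001270) lies on chromosome 12 from 111669361 to 111672338 on the minus strand and had 217 to 566 reads per mouse, while its pseudogenes Ckb-ps1 and Ckb-ps2 had 0 reads. The sequence around its start and that of Ckmt2 are shown because Ckb had 217 reads or more in every mouse, while Ckmt2 had over 10 reads in 5 mice. Both are 300-base windows from RefSeq on GRCm38.p6, 250 bases before the start and 50 after it, read 5′ to 3′ on the gene's strand, and capitals mark matches to the letters CAGCTG and TATAAA, the only matches to these in each window. Windows were found for 6 of the 7 members.
Ckb, chr12:111672289-111672588, minus strand: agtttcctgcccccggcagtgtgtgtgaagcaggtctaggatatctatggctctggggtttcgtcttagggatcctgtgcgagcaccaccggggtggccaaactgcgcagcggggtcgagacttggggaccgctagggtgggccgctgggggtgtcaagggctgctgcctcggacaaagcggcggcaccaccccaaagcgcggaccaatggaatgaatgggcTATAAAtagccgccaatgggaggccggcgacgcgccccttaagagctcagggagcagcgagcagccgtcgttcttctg
Ckmt2, chr13:91876836-91877135, minus strand: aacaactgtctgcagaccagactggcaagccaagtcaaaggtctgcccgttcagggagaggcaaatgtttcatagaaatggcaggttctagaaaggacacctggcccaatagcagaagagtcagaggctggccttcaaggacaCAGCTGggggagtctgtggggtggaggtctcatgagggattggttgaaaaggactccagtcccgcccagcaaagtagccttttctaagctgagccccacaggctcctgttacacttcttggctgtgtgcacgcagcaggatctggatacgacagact
The Ckb window holds TATAAA 28 bases before the start and 22 CpG dinucleotides, and no CAGCTG. The Ckmt2 window holds CAGCTG, letters of the E-box kind that muscle factors of the MyoD family can bind, 107 bases before the start, with 4 CpG and no TATAAA. The same letters CAGCTG were in a window of Alpl, 176 bases before the start, and in a window of Ckmt1, 1 base before it, so 3 of the 6 members with windows held it. As many held TATAAA, which was 31 bases before the start in a window of Ckmt1 and 192 bases before it in a window of Alpl, and the Ckmt1 window also held AAGGTCA. Of 32851 RefSeq windows of this length, 16.3% held CAGCTG, 13.6% held TATAAA and 4.72% held AAGGTCA, an estrogen-related receptor half-site, which neither window held, and the median CpG count was 7, with quartiles of 3 and 20. The percentages are per window, while the counts above are per member, and Ckmt1 and Alpl had more than 1 window each. CAGCTG reads the same on both strands, and TATAAA and AAGGTCA were searched on both strands. These matches are letters in a window, not sites shown to be used.

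Ckb was the most even of the kinases. In AAV-GFP mice it ran from 13.4 CPM through a median of 19.1 to 31.7, and in AAV-Notum mice from 14.7 through 17.9 to 22.3. AAV-GFP mouse S_2011 was the highest and AAV-GFP mouse S_2022 the lowest, so the controls spanned all of the AAV-Notum values. The means were 20.3 ± 6.22 CPM (SD, n = 6) with AAV-GFP and 18.2 ± 2.97 CPM (SD, n = 6) with AAV-Notum, and the log2 fold change of -0.16 (SE 0.19, 95% interval -0.56 to 0.25, adjusted p = 0.643 from edgeR) was within the spread between mice (exact permutation p = 0.565). Without AAV-GFP mouse S_2011 it was 0.015, and it was 0.060 and 0.14 when RNA integrity or the lymphoid score entered as a covariate.

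Ckmt1, the ubiquitous mitochondrial creatine kinase, was at the edge of detection. The gene (ENSMUSG00000000308) lies on chromosome 2 from 121357714 to 121363737 on the plus strand and overlaps Strc on the minus strand, and the strand setting of the counting is not given in the sources used here. It had 1 read in each of AAV-GFP mice S_2011 and S_2021 and AAV-Notum mouse S_2033, and 0 reads in the other 9 mice. A count of 0 allows a level of up to 3 reads, which is 0.138 to 0.199 CPM in these libraries, a limit for counting error only. No difference between the groups was detectable at this depth (exact permutation p = 1).

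Ckmt2, the sarcomeric mitochondrial creatine kinase, is the form of heart and skeletal muscle and is also made in brown fat. The gene (ENSMUSG00000021622) lies on chromosome 13 from 91853387 to 91876885 on the minus strand and overlaps 1700119I11Rik on the plus strand. It was patchy in both groups. AAV-GFP mice S_2011, S_2012, S_2013, S_2014, S_2021 and S_2022 had 36, 63, 7, 25, 6 and 0 reads, and AAV-Notum mice S_2031, S_2032, S_2033, S_2034, S_2041 and S_2042 had 1, 1, 36, 0, 1 and 385. AAV-Notum mouse S_2042 thus held 385 of the 424 reads of its group, more than all 6 AAV-GFP mice together with 137, and the other AAV-Notum mouse with more than 1 read was S_2033. The medians were 0.950 CPM with AAV-GFP and 0.0569 with AAV-Notum, while the means, 1.32 ± 1.42 CPM (SD, n = 6) and 4.58 ± 10.01 CPM (SD, n = 6), stood the other way round. Without mouse S_2042 the AAV-Notum mean was 0.510 ± 1.05 CPM (SD, n = 5). Ckmt2 failed the filter on low counts, and its mean log2 CPM differed by -0.53 (exact permutation p = 0.732), within the spread between mice. The direction turned with the measure: fitted by edgeR with no filter, the log2 fold change was 1.77 (adjusted p = 0.531).

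Ckmt2 followed the skeletal muscle transcripts from mouse to mouse. The 5 mice with over 1000 reads on Myh4, the fast myosin heavy chain of skeletal muscle, held 527 of the 561 Ckmt2 reads (93.9%), with 7 to 385 each. Most of these, 385, were in AAV-Notum mouse S_2042, and the rest were in AAV-GFP mice S_2011, S_2012 and S_2013 and AAV-Notum mouse S_2033. The other 7 mice had 2 to 279 Myh4 reads and 0 to 25 Ckmt2 reads, and without AAV-GFP mouse S_2014 they had 0 to 6. Across the 12 mice, log2 CPM of Ckmt2 and the mean log2 CPM of the 28 skeletal muscle markers had a Pearson r of 0.952 (permutation p = 3.00e-05, adjusted 9.00e-05 over 3 relations) and a Spearman rho of 0.909 (permutation p = 1.10e-04, adjusted 3.30e-04). The r was 0.885 without AAV-Notum mouse S_2042 and AAV-GFP mouse S_2012, the mice farthest from the median of the muscle markers. It was 0.879 within the AAV-GFP mice, 0.988 within the AAV-Notum mice, and 0.955 over the deviations from the group means. In the 5 mice with over 1000 Myh4 reads, Ckmt2 had 1.18 to 4.09 reads per 1000 reads on the muscle markers, while its level spanned 0.410 to 24.9 CPM.

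The brown and beige fat markers showed no such relation to Ckmt2. The mean log2 CPM of 12 such markers, Ucp1 and Cidea among them, had r = -0.034 with Ckmt2 (permutation p = 0.917, n = 12 mice) and rho = -0.049 (permutation p = 0.886), and r was 0.356 without the 2 mice farthest from the median of those markers. Among its members, Slc27a2 and Elovl3 were highest in AAV-GFP mouse S_2013, at 100.9 and 16.4 CPM, where the hepatocyte markers were highest, and lowest in AAV-GFP mouse S_2011, at 0.280 and 0 CPM, where those markers were lowest. The list mean did not keep that order. It was 3.14 log2 CPM in AAV-GFP mouse S_2013 but 3.63 in AAV-Notum mouse S_2042, where the hepatocyte mean was 0.155. The part of liver RNA in the r with Ckmt2 was not tested. AAV-Notum mouse S_2041 had the most Ucp1, 770 reads, and 1 Ckmt2 read, and AAV-GFP mouse S_2022 had 236 Ucp1 reads and 0 Ckmt2 reads, which allows up to 0.185 CPM. AAV-Notum mouse S_2042, in contrast, had 212 Ucp1 reads beside its 385 Ckmt2 reads. The 12 adipocyte markers gave r = 0.787 (permutation p = 0.00269, adjusted 0.00403) and rho = 0.776 (permutation p = 0.00411, adjusted 0.00616), with r = 0.731 without the 2 mice farthest from their median.

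**Figure D3:**
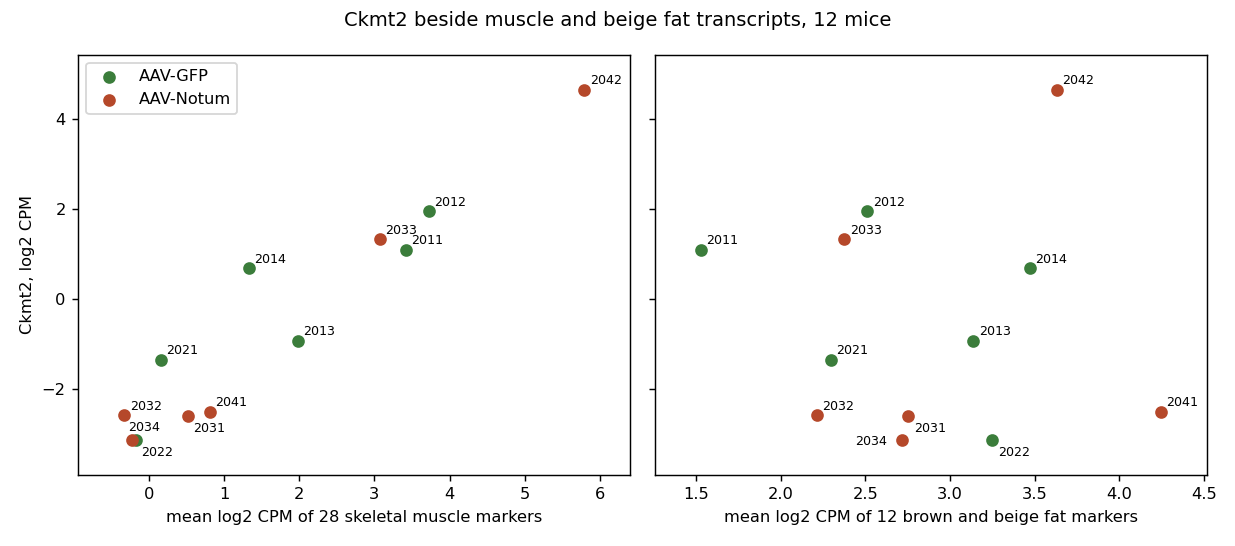
Log2 CPM of Ckmt2 (y axis) is plotted against the mean log2 CPM of 28 skeletal muscle markers (left) and of 12 brown and beige fat markers (right), with 1 point per mouse marked by its number. Ckmt2 climbs with the muscle markers in both groups (r = 0.952) and shows no such order with the brown and beige markers (r = -0.034).

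The difference in the muscle markers between the groups was within their spread. Their mean log2 CPM ran from -0.17 to 3.73 in AAV-GFP mice and from -0.33 to 5.79 in AAV-Notum mice, a difference of -0.13 (exact permutation p = 0.920), and their summed level from 91.8 to 1299 CPM and from 83.2 to 6092 CPM. Of the 28 markers 21 were tested, and 0 were called at an unadjusted p under 0.05, where 14.2% of all genes were. Their median log2 fold change was 1.34. Between 0 and 4 of the 28 were at 0 in a mouse, and Myh7, the slow myosin heavy chain, was at 0 in AAV-GFP mice S_2011, S_2012 and S_2014 and AAV-Notum mouse S_2042. Myot was at 0 in AAV-GFP mice S_2021 and S_2022 and AAV-Notum mice S_2032 and S_2034, which had few muscle reads. The 3 with the highest mean CPM, which is not corrected for gene length and rests on mouse S_2042, were Myh4, the sarcoplasmic calcium pump Atp2a1 and the skeletal actin Acta1. Myh4 had 1.48 to 325 CPM in AAV-GFP mice and 0.105 to 1546 in AAV-Notum mice, Atp2a1 had 1.35 to 183 and 0.735 to 843, and Acta1 had 1.54 to 144 and 2.43 to 614. The smallest p were those of the muscle enolase Eno3 (log2 fold change 0.71, unadjusted p = 0.139, adjusted p = 0.454 from edgeR) and titin, Ttn (1.69, unadjusted p = 0.145, adjusted p = 0.458). Ckm, the cytosolic creatine kinase of muscle on chromosome 7 from 19404776 to 19422841, which overlaps A930016O22Rik on the other strand, had 1339, 1737, 391, 115, 27 and 6 reads in AAV-GFP mice S_2011, S_2012, S_2013, S_2014, S_2021 and S_2022, and 36, 1, 1104, 0, 81 and 7172 in AAV-Notum mice S_2031, S_2032, S_2033, S_2034, S_2041 and S_2042. Ckm had over 1000 reads in 4 of the 5 mice with over 10 Ckmt2 reads, the exception being AAV-GFP mouse S_2014 with 115. Its log2 fold change was 1.37 (SE 1.69, adjusted p = 0.657 from edgeR), but its mean log2 CPM differed by -1.17 (exact permutation p = 0.628), and its medians were 14.9 CPM with AAV-GFP and 3.41 with AAV-Notum. The AAV-Notum mean of Ckm was 90.7 CPM, or 16.01 without mouse S_2042, where the AAV-GFP mean was 34.97.

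With the muscle marker score as a covariate and no filter on low counts, a pair of choices made with the data in view, the log2 fold change of Ckmt2 was -0.87 (unadjusted p = 0.186, adjusted p = 0.504 from edgeR). Without the 5 mice with over 1000 Myh4 reads its mean log2 CPM differed by -1.46 (exact permutation p = 0.229, 3 AAV-GFP and 4 AAV-Notum mice). AAV-GFP mouse S_2021, with few muscle transcripts, had 6 Ckmt2 reads (0.277 CPM), or 2.69 per 1000 reads on the muscle markers. That lies within the 1.18 to 4.09 of the mice rich in them. The ratio was 0 in AAV-GFP mouse S_2022 and AAV-Notum mouse S_2034, below that range. It was also below it in AAV-Notum mice S_2031, S_2032 and S_2041, at 0.457, 0.630 and 0.457, and above it in AAV-GFP mouse S_2014, at 8.54. A floor of marker reads remains in such mice: AAV-Notum mouse S_2034 had 1591 with 0 Ckm reads. Eno3 and Myl1 had at least 247 and 278 reads in every mouse.

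**Figure D4:**
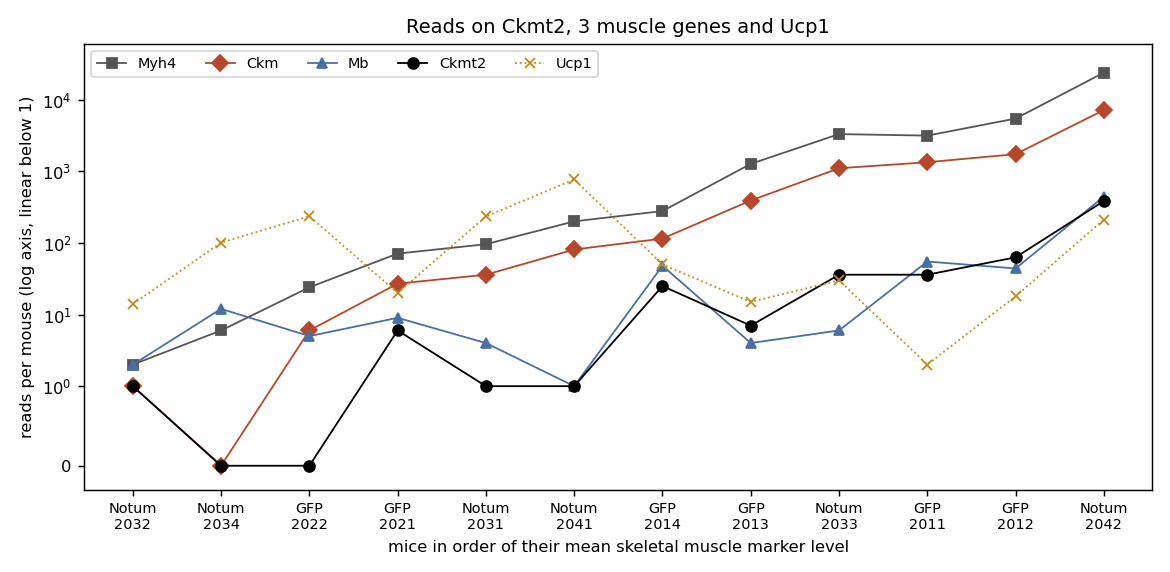
Reads per mouse (log y axis, linear below 1) on Ckmt2, the muscle genes Myh4, Ckm and Mb, and Ucp1 are shown for the 12 mice in order of their mean skeletal muscle marker level (x axis). Ckmt2 goes from 0 to 1 read at the left to 385 reads in AAV-Notum mouse S_2042 at the right, where Myh4 has 23881, while Ucp1 keeps no such order.

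Alpl encodes tissue-nonspecific alkaline phosphatase, which is known from bone mineralization and which splits phosphocreatine in the cycle of thermogenic fat. The gene (ENSMUSG00000028766) lies on chromosome 4 from 137741733 to 137796384 on the minus strand and had 66 to 106 reads per mouse. AAV-GFP mice ran from 3.46 CPM through a median of 4.93 to 6.31, and AAV-Notum mice from 3.85 through 4.55 to 5.60. The AAV-Notum mice lay entirely within the range of the controls, and Alpl was the least variable of the 5 members tested, with a coefficient of variation of 20.7% in AAV-GFP mice and 14.6% in AAV-Notum mice. The means were 4.87 ± 1.01 CPM (SD, n = 6) and 4.58 ± 0.667 CPM (SD, n = 6), with a log2 fold change of -0.09 (SE 0.16, 95% interval -0.44 to 0.26, adjusted p = 0.770 from edgeR, exact permutation p = 0.623). It was 0.069 when the lymphoid score entered as a covariate and 0.086 without the 5 mice with over 1000 Myh4 reads.

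The genes with the most similar pattern over the 12 mice, by Pearson's r of log2 CPM among all genes tested, are given as a description, since all points come from the same libraries. For Slc6a8 they were Serpinb6a (r = 0.990), Fam198b (0.971) and Pcolce (0.961), and for Gamt they were Ghdc (0.981), Ppp1r16a (0.949) and Mvk (0.939). Ckb was closest to Amhr2 (0.943), Tmem256 (0.940) and Cuedc2 (0.931). Gatm, with few reads, had lower values with Cdk18 (0.891), Fkbp11 (0.852) and Creg1 (0.830), as had Alpl with Gm43609 (0.886), Nuak1 (0.860) and Pi4k2b (0.841). For Ckmt2, which failed the filter and was added to this step after its values were seen, the closest genes were Cmya5 (0.972), Hrc (0.969) and Casq1 (0.967), and each of these encodes a protein of striated muscle.

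Genes around the creatine cycle were described from 5 lists. Of 21 partners of the cycle, which make or use its amino acids and methyl groups or carry and recycle adenine nucleotides, 19 were tested, 0 were higher and 2 were lower at an unadjusted p under 0.05, near the 9.54% of all genes that were lower, and the median log2 fold change was -0.04. Oat, ornithine aminotransferase, which acts on the ornithine that the Gatm reaction releases, had 141 to 262 CPM in AAV-GFP mice and 134 to 213 in AAV-Notum mice. The means of Oat were 209 ± 46.3 CPM (SD, n = 6) and 162 ± 29.0 CPM (SD, n = 6), with a log2 fold change of -0.37 (SE 0.16, adjusted p = 0.328 from edgeR, exact permutation p = 0.0649). Gnmt, glycine N-methyltransferase of liver, had a log2 fold change of -2.63 (SE 1.12, adjusted p = 0.325 from edgeR, exact permutation p = 0.173), but AAV-GFP mouse S_2013 held 1125 of the 1550 AAV-GFP reads at 65.8 CPM. That mouse also had the highest mean of 12 hepatocyte markers, 8.18 log2 CPM against 0.10 to 6.47 in the others, and the part of liver RNA in the Gnmt value was not tested. The nucleotide carriers Slc25a4 and Slc25a5, which exchange ATP and ADP across the inner mitochondrial membrane, had log2 fold changes of -0.08 (adjusted p = 0.821 from edgeR) and 0.12 (adjusted p = 0.517). Phospho1, a phosphatase related to Alpl in mineralization, had 1 to 9 reads and was not tested.

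In the list of other alkaline phosphatases and mineralization genes, 4 of 7 were tested, 0 were higher and 1 was lower at an unadjusted p under 0.05 (9.54% of all genes). The lower gene was Slc20a2, a sodium-phosphate cotransporter, with 46.3 to 74.3 CPM in AAV-GFP mice and 37.4 to 57.0 in AAV-Notum mice. Each AAV-Notum mouse, 6 of 6, lay below its AAV-GFP mean (log2 fold change -0.39, SE 0.14, adjusted p = 0.245 from edgeR, exact permutation p = 0.0281). Its relative Slc20a1 had a log2 fold change of 0.44 (SE 0.24, adjusted p = 0.412). In the calcium cycle list, a second route of heat production without UCP1, 8 of 9 genes were tested and 0 were called in either direction, and the smallest p were those of the calcium pump Atp2a2 (log2 fold change -0.21, SE 0.10, adjusted p = 0.367) and the calcium release channel Ryr2 (0.78, SE 0.42, adjusted p = 0.400). Among 9 genes of the lipid cycle and related routes 0 were called in either direction. There, Pm20d1, which makes N-acyl amino acids, had a log2 fold change of -0.63 (SE 0.29, adjusted p = 0.355), and Pck1, which supplies glycerol 3-phosphate, had -0.48 (SE 0.23, adjusted p = 0.367). Of 6 genes that brown fat shares with muscle, 4 were tested and 0 were called, with Cox8b at 0.55 (SE 0.28, adjusted p = 0.386) and Cox7a1 at 0.46 (SE 0.44, adjusted p = 0.576).

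Beside these, 11 of the 12 brown and beige markers were tested, and 2 were higher and 1 was lower at an unadjusted p under 0.05, where 4.64% of all genes were higher and 9.54% lower. P2rx5, a purinergic receptor of brown and beige fat, was higher in all 6 AAV-Notum mice than in every AAV-GFP mouse, as were 0.398% of all genes (log2 fold change 0.97, SE 0.20, adjusted p = 0.102 from edgeR, exact permutation p = 0.0022, the smallest that 6 mice against 6 can give). Cidea, a lipid droplet protein, had 1.09 (SE 0.38, adjusted p = 0.242), and the beige-lineage factor Ebf2 had -0.70 (SE 0.27, adjusted p = 0.286). The highest mean CPM of the list, not corrected for gene length, were those of Kcnk3, Cidea and Ebf2, and Kcnk3 differed by 0.11 (SE 0.22, adjusted p = 0.796). The summed level of the 12 markers was 210 to 335 CPM with AAV-GFP and 158 to 489 with AAV-Notum. Their mean log2 CPM differed by 0.29 (exact permutation p = 0.517), and by 0.038 without AAV-Notum mouse S_2041. Members went both ways, with fitted log2 fold changes of 1.99 for Ucp1 (adjusted p = 0.405) and 1.24 for Dio2 (adjusted p = 0.396) but -2.20 for Slc27a2 (adjusted p = 0.396) and -1.70 for Elovl3 (adjusted p = 0.484). In mean log2 CPM these genes differed, in the same order, by 2.11, 1.30, -0.87 and -0.41. Single mice weigh on such values. The AAV-Notum mean of Ucp1 was 13.6 CPM, or 6.81 without mouse S_2041. Among the other marker lists, the lymphoid markers differed by 2.72 log2 units (exact permutation p = 0.0844), the endothelial by -0.27 (p = 0.0952), the smooth muscle by -0.20 (p = 0.136), the hepatocyte by -2.04 (p = 0.201) and the nerve by -0.34 (p = 0.253). The adipocyte, progenitor, epithelial and macrophage lists differed by -0.18, 0.11, 0.12 and -0.02 (exact permutation p from 0.470 to 0.894), and over the 11 lists the smallest adjusted p was 0.50 and the largest 0.920. In the smooth muscle list 3 of 9 genes were lower at an unadjusted p under 0.05, and 1, Synpo2, also at an adjusted p (0.0495 from edgeR).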

How the data were processed

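iWAT RNA of 12 mice was analysed. The authors prepared TruSeq libraries, sequenced 50 bp single-end reads and mapped them to mm10 with STAR 2.3.1. The read counter and annotation are not given in the sources used here. The deposited raw table holds read counts without normalization. The other table, as deposited by the authors, holds log2 normalized values for 31157 genes, from which whole reads were recovered for 100% of values (tolerance 0.01). It was used only as an alternative.

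Counts were fitted with edgeR 4.0.16 under R 4.3.3 (filterByExpr, minimum count 10, minimum total 15, TMM, glmQLFit), two-sided, with Benjamini-Hochberg adjustment over 15585 genes. Ckmt1 and Ckmt2 failed the filter and were tested by exact permutation of mean log2 CPM (prior count 2, 924 assignments, smallest p 0.0022). p-values of marker lists and of single values are from that test, and those of correlations from 100000 permutations. Libraries correlated at 0.840 to 0.990, so none was a copy. DESeq2 1.42.0, limma-voom (limma 3.58.1), other scalings, filters and covariates, and each mouse left out were the alternatives. The recovered reads, the fits without mice of over 1000 Myh4 reads or without mice of few lymphoid transcripts, and the unfiltered fit with the muscle score were chosen after seeing the data. Genes named are the 7 members, pathway list genes with an unadjusted p under 0.05, the 2 of smallest p per pathway list, in the muscle and brown and beige lists also the 3 of highest mean CPM, and the 3 genes most like each tested member. Ckm, Slc25a4, Slc25a5, Phospho1, Ucp1, Dio2, Slc27a2, Elovl3, Synpo2, Mb, Myh7, Myot, Adipoq and Plin1 were named after their values were seen. The members and lists were chosen with earlier results of these data known. Positions are those of GENCODE vM21 on GRCm38, and promoters are from RefSeq GRCm38.p6. Genes with few reads carry more counting error. Figures were drawn with matplotlib 3.10.9.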

Additional observations from a re-analysis of the deposited data

Results flagged for a closer look

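A gap test on the highest and lowest mouse of each group (Dixon's test at the 95% level) was applied to the 7 members and 11 marker lists in both groups, and 5 of 36 cases stood out, where chance gives about 1 in 20. Ckmt2 stood out in AAV-Notum mouse S_2042, with 24.9 CPM where the other 5 AAV-Notum mice had 0 to 2.39. Gatm stood out in AAV-Notum mouse S_2034, with 2.09 CPM where the other 5 had 1.05 to 1.42. Ckmt1 stood out in AAV-Notum mouse S_2033 through 1 read, 0.0663 CPM, where the others had 0. With the others at 0 the ratio of that case is fixed, so it carries no information and leaves 4 cases. The macrophage markers stood out in AAV-GFP mouse S_2014, with a mean log2 CPM of 5.06 where the other AAV-GFP mice had 5.81 to 6.17. The progenitor markers stood out in AAV-Notum mouse S_2032, with 6.83 log2 CPM where the other AAV-Notum mice had 6.48 to 6.59.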

How the results depend on the processing

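No paired analysis was possible because the labels give each mouse a number of its own, and the groups share none. The count of members with an adjusted p under 0.05 was 0 in all 16 other settings and without each of the 12 mice, by edgeR, DESeq2 and limma. The count at an unadjusted p under 0.05 went from 1 to 0 with RNA integrity or the lymphoid score as a covariate and without the 2 mice of few lymphoid transcripts, and from 0 to 2 with a mouse left out (0 without AAV-GFP mice S_2011 and S_2012 and AAV-Notum mice S_2031, S_2032, S_2033 and S_2041, and 2 without AAV-GFP mouse S_2022). The share of all genes called moved too, from 14.2% to 8.93% and 8.96% with those covariates, 7.11% without the 2 mice and 24% without AAV-GFP mouse S_2022. Slc6a8 stayed below 0 in every setting run, at -0.31 with RNA integrity, -0.18 with the lymphoid score, -0.31 without those 2 mice, and -0.61 to -0.34 with a mouse left out (unadjusted p 0.00689 to 0.0760 from edgeR). In the same order of settings Ckb turned to 0.060, 0.14 and 0.079, and it ran from -0.25 to 0.015 with a mouse left out. Gamt turned to 0.058 with the lymphoid score and ran from -0.76 to -0.34 with a mouse left out, with an unadjusted p of 0.0346 without AAV-GFP mouse S_2022. Alpl turned to 0.069 with the lymphoid score and, without the mice of over 1000 Myh4 reads, to 0.086, where Gatm turned to 0.11. With a mouse left out Alpl ran from -0.17 to -5.57e-04 and Gatm from -0.49 to -0.22. The Ckmt2 difference was 1.76 with DESeq2, which gave it no p, 1.77 with edgeR and no filter and 0.052 without the 2 mice of few lymphoid transcripts, and -1.62 (without AAV-Notum mouse S_2042) to -0.061 with a mouse left out. The list differences ran, with a mouse left out, from -0.97 to 0.26 for muscle, 1.83 to 3.32 for lymphoid (unadjusted p under 0.05 by the exact permutation test in 3 of 12), -0.34 to -0.18 for endothelial, -2.84 to -1.22 (without AAV-GFP mouse S_2013) for hepatocyte, -0.50 to -0.19 (without AAV-Notum mouse S_2032) for nerve, -0.30 to -0.084 (without AAV-GFP mouse S_2014) for adipocyte, -0.070 to 0.40 for epithelial, -0.039 to 0.17 for progenitor and -0.18 to 0.068 for macrophage markers. Gamt was -0.0087 without the 2 mice of few lymphoid transcripts (unadjusted p = 0.975 from edgeR). With the hepatocyte score as a covariate the fold changes moved away from 0 for Slc6a8 (-0.64, unadjusted p = 0.00308, adjusted p = 0.133), Ckb (-0.31, unadjusted p = 0.0868), Gamt (-0.72, unadjusted p = 0.0843) and Gatm (-0.39, unadjusted p = 0.185). The marker lists were run under 2 other settings and with each mouse left out. The cause of these changes was not tested. Over all genes the count of 8 with an adjusted p under 0.05 was 100 with the muscle score as a covariate, 158 without AAV-GFP mouse S_2022, 436 with DESeq2 and 0 without the mice of over 1000 Myh4 reads. Depth limits Ckmt1, Ckmt2 and Gatm most.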

Other observations

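AAV-GFP mouse S_2014 was the exception among the mice with few muscle transcripts. It had 25 Ckmt2 reads beside 279 Myh4 reads, or 8.54 Ckmt2 reads per 1000 reads on the skeletal muscle markers, where the other 11 mice had 0 to 4.09. This ratio is rough where muscle transcripts are few. AAV-GFP mouse S_2022, with 24 Myh4 reads, still had 1490 marker reads, beside 2927 in mouse S_2014. Mouse S_2014 also had 48 reads of myoglobin, Mb, the oxygen store of muscle. That number is near the 55 and 44 of AAV-GFP mice S_2011 and S_2012, which had 3151 and 5452 Myh4 reads. The Cox7a1 level of mouse S_2014, 6.14 CPM, was the highest of the AAV-GFP mice, as were its mean brown and beige marker level, 3.47 log2 CPM, and their summed level, 335 CPM, beside a hepatocyte marker mean of 6.47 log2 CPM and 29.1 CPM of Slc27a2, and it had 50 Ucp1 reads. AAV-Notum mouse S_2033 had 3311 Myh4 reads but 6 Mb reads, with 36 Ckmt2 reads.

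Enpp1, which makes the mineralization inhibitor pyrophosphate that Alpl breaks down, ran from 0.954 to 14.3 CPM with AAV-GFP and from 4.86 to 19.6 with AAV-Notum (log2 fold change 0.88, SE 0.59, adjusted p = 0.468 from edgeR, exact permutation p = 0.0844). Its lowest levels, 0.954 and 1.91 CPM, were in AAV-GFP mice S_2014 and S_2011, the mice with few lymphoid transcripts. Enpp1 and Mb were named after their values were seen.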
